A study of Mus musculus with 16 samples.

Results

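Kupffer cells, the macrophages that live in the liver, were compared with the other liver cells sequenced beside them. The comparison held 4 Kupffer cell (KC) libraries of 16, against 12 libraries of endothelial cells (ECs), hepatic stellate cells (HSCs) and hepatocytes (HEPs). A gene was called specific to Kupffer cells when its mean level there was at least 4 times the highest of the 3 other cell type means. Levels are given as CPM, the reads of a gene scaled to the same total of reads on genes in every library (1000000). By this rule 2095 of 47729 genes, or 4.39%, were specific, and 552 of these had a mean of at least 10 CPM in Kupffer cells. Because the rule was written on the ratio between cell types, that ratio is given below as a description. Tests between cell types over all 16 libraries use the same contrast and libraries as the rule. For specific genes their calls therefore follow largely from the rule and are no separate support.

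The libraries came from livers of male mice aged 8 weeks that had received no liver toxin. Each cell type had 2 libraries labelled KO and 2 labelled WT. The KO label stands for mice with Cdh5-CreERT2, a recombinase driven by the promoter of the endothelial cadherin gene, and a Zeb2 gene whose exon 7 is flanked by loxP sites, on a background with an eGFP reporter. The WT label stands for littermates without Cre, and both groups received 2 mg tamoxifen per day for 5 days, with mRNA taken 2 weeks later. Hepatocytes were separated by centrifugation, and the other cells by flow cytometry. Stellate cells were taken for their ultraviolet autofluorescence, Kupffer cells as cells without it that carried the F4/80 surface protein, and ECs by a pan-endothelial antibody. Libraries are named by cell type, label and sample number, and values of the Kupffer cell libraries are given in the order KC WT 31, KC WT 39, KC KO 27 and KC KO 43.

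Kupffer cells line the liver sinusoids, where they take up bacteria, ageing red blood cells and immune complexes from portal blood. Like other macrophages they depend on the receptor Csf1r and on its ligands Csf1 and Il34, which neighbouring cells make, and on the transcription factor PU.1, the product of Spi1. The liver X receptor gene Nr1h3 and the genes Spic and Id3 are known for their part in the identity of this cell.

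The libraries held between 12872706 and 15690506 reads on genes, and the Kupffer cell libraries between 14775530 and 15326003. Zeb2 was counted first, since its label defines the groups. In ECs it stood at 106 and 106 CPM under the WT label and at 199 and 130 CPM under the KO label, so that it was not lower in ECs labelled KO. The whole-gene count includes every exon and cannot show the loss of exon 7, and the groups are therefore called by their labels. The labels do not say which libraries came from the same animal, and the 4 cell types were isolated from the same cell suspensions. All libraries were treated as independent, so that the tests leave out any sharing of animals, and p-values describe the spread between these libraries only.

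The label Kupffer cell was first checked with 4 markers. Clec4f, a C-type lectin of Kupffer cells (chr6:83644542-83656187, GRCm38), stood at 12553, 12929, 11685 and 11243 CPM. Cd5l, a secreted scavenger protein that keeps macrophages alive (chr3:87357881-87371073), stood at 11104, 9717, 7640.5 and 10767 CPM. Timd4, a receptor for the phosphatidylserine of dying cells, stood at 1136, 764, 656 and 806 CPM, and Csf1r, the receptor for Csf1 and Il34, at 3508, 6130.1, 6221 and 5241 CPM. All 4 markers were higher in every Kupffer cell library than in any other library. The next highest type was in each case HSCs, with means of 334, 261, 23.9 and 175 CPM, so that the ratios were 36.3 for Clec4f, 37.6 for Cd5l, 35.2 for Timd4 and 30.2 for Csf1r.

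**Figure D1:**
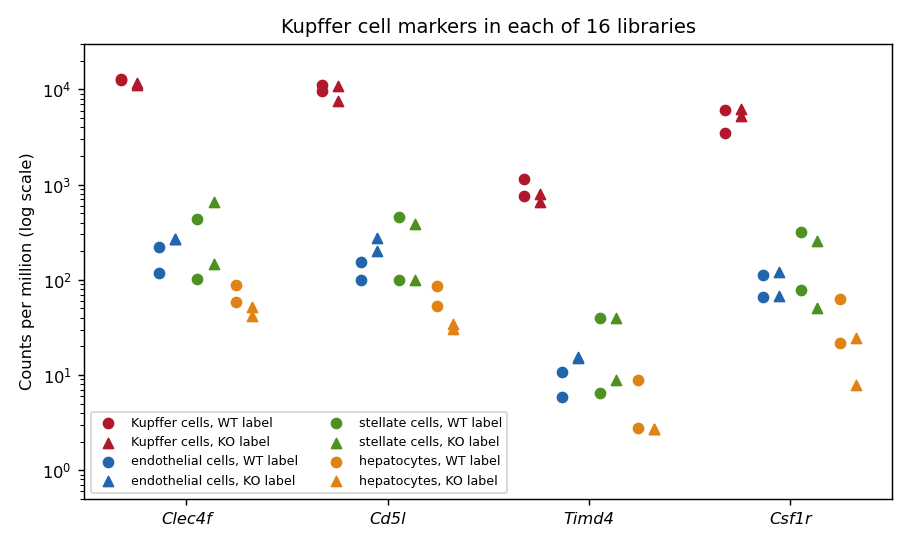
Level of the 4 Kupffer cell markers in each of the 16 libraries, in CPM on a log scale, with 1 point per library, colours for cell types, circles for the WT label and triangles for the KO label. The Kupffer cell points lie above all others for every marker, and the stellate cell points fall into a higher and a lower pair.

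The markers were present at a low level in every other library. Their summed level was 26203 to 29540 CPM in Kupffer cells, 287 to 629 CPM in ECs, 288 to 1335 CPM in HSCs and 82.7 to 248 CPM in HEPs. Set against the Kupffer cell mean, the median marker stood at 4.81% in HSC KO 20 and 4.71% in HSC WT 32, but at 1.04% in HSC KO 8 and 0.938% in HSC WT 40. In ECs it stood between 0.986% and 2.13%, and in HEPs between 0.316% and 0.975%. Over the 552 specific genes the corresponding medians were 7.09% and 6.44% in the first pair of stellate libraries and 1.68% and 2.80% in the second. The part of Kupffer cell RNA in these levels was not tested. In bulk libraries such as these, fewer cells of a type and less RNA per cell cannot be told apart.

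RNA of other liver cells was in turn counted in the Kupffer cell libraries. The 10 hepatocyte markers had a median of 5.12%, 7.97%, 8.96% and 10.6% of their level in HEPs, and Alb, the most abundant plasma protein, stood at 3287, 4417, 5087 and 5729 CPM. The 10 endothelial markers had a median of 1.91%, 3.24%, 5.76% and 3.78% of their level in ECs. The 10 stellate cell markers lay between 0.328% and 1.13%. None of these 30 markers was higher in Kupffer cells than in each other cell type.

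Specific genes took a large share of the Kupffer cell libraries. Between 24.5% and 28.3% of the reads in Kupffer cells fell on them, against 0.498% to 2.05% in the other 12 libraries. The rule chose these genes in the same libraries, so that the difference in share is a description. Of the 2095 genes 278 reached 100 CPM and 47 reached 1000 CPM, while 649 had at most 3 reads over all 4 Kupffer cell libraries and stand on almost no data. A read in every Kupffer cell library was found for 901, and 902 passed the filter on low counts. This filter could be passed through the Kupffer cell libraries alone, so that the tested members are not a sample of all members. The account that follows keeps to the 552 genes at 10 CPM or more unless it says otherwise, which were 6.87% of the 8030 genes at that level in Kupffer cells.

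Among the 552 the ratio to the next cell type had a median of 14.7, and the middle of the distribution, from its lower to its upper quartile, ran from 6.76 to 27.2. The next highest type was HSCs for 273, ECs for 248 and HEPs for 31. Ratios between 20 and 50 were found for 205 genes, or 37.1%, and 13 genes exceeded 50. For 527 of the 552 the lowest Kupffer cell library lay above the highest other library, which held for 1013 of all 8030 genes at this level, or 12.6%. The rule chose the 552 on these same libraries, so that this separation largely follows from it and is a description. Of the 551 with an entry in the annotation, 516 (93.6%) were protein coding, against 7891 (98.3%) of the 8026 genes at this level with an entry. Without HSC KO 20 and HSC WT 32, a choice made after seeing the data, the rule gave 567 genes, of which 550 were among the 552.

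**Figure D2:**
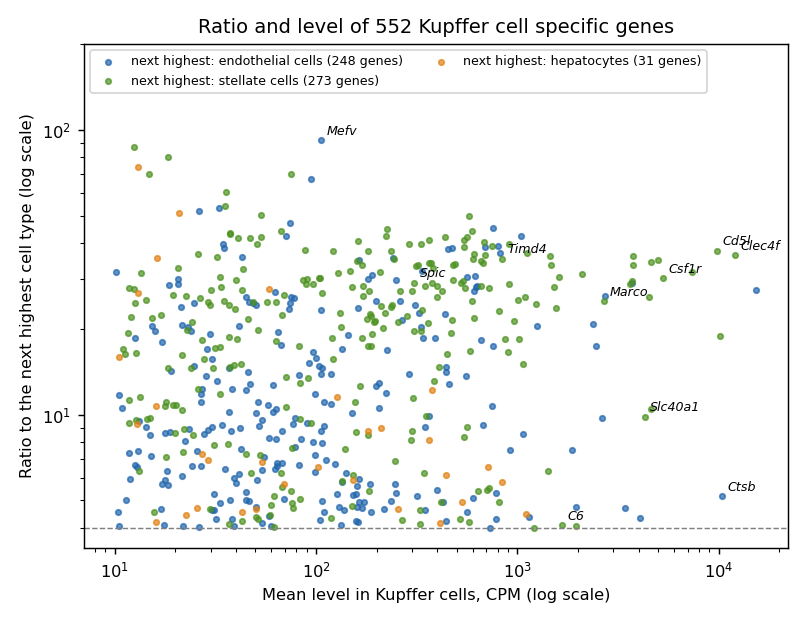
Ratio of the Kupffer cell mean to the next highest cell type mean against the Kupffer cell mean in CPM, both on log scales, for the 552 specific genes of at least 10 CPM, with 1 point per gene coloured by the next highest cell type. The dashed line marks the 4-fold rule, and points between ratios of 20 and 50 include Csf1r at 30.2 and Clec4f at 36.3.

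The 10 specific genes with the highest CPM were Cd74, Clec4f, Ctsb, Lyz2, Cd5l, C1qb, Csf1r, C1qc, Ctsc and C1qa. Since long transcripts give more reads, their levels were also compared per kilobase of exon. On that scale Cd74, the invariant chain of MHC class II, was highest with 9167 CPM per kilobase, followed by the lysozyme gene Lyz2 with 7708 and C1qb with 6781. Clec4f had 4898, Cd5l 4817 and C1qa 4445 CPM per kilobase. Ctsb with 1722 and Csf1r with 914 were lower on this scale than on the CPM scale, since their exons cover 6051 and 5774 bases.

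Differences were tested with edgeR's quasi-likelihood test over all 16 libraries, with the label as a covariate and Benjamini-Hochberg adjustment over the 17214 genes that passed the filter. Against the mean of the other cell types, 20.5% of all genes tested were higher in Kupffer cells and 18.1% were lower at an adjusted p under 0.05. A stricter call, higher than each of the other cell types, was met by 1210 genes, or 7.03%. The 7.03% is the background for the gene lists below. Of the 552 specific genes 537 met this call, which largely follows from the rule. The median log2 difference of all tested genes was -0.15 with TMM scaling and -0.04 with RLE size factors, and list medians are to be read beside it. TMM factors were 0.497 to 0.588 in HEPs, 1.01 to 1.21 in Kupffer cells, 1.14 to 1.24 in HSCs and 1.34 to 1.47 in ECs. CPM are not scaled by them. Ratios of Kupffer cells to HEPs, and the hepatocyte marker levels above, are therefore larger in CPM than after TMM scaling, and ratios to ECs are smaller.

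The rule was also applied anew within 1 label and the test run within the other, so that the libraries tested had not chosen the genes. Both steps use the same contrast between cell types, so that the counts describe how far it repeated between labels. From the WT libraries 825 genes of at least 1 CPM were chosen. In the libraries labelled KO 753 of them could be tested, and 423 (56.2%) were higher than each other cell type, where 5.08% of all 16037 genes tested were. In the converse direction 966 genes were chosen and 868 tested in the WT libraries, of which 431 (49.7%) were higher than each other type, against 4.24% of all genes tested. The chosen genes needed at least 1 CPM in Kupffer cells and could pass the filter through those libraries alone. The genes tested as a whole needed no such level, so that the shares are not for genes of like level. The 4-fold rule itself was met again by 660 (80.0%) and 662 (68.5%) of the chosen genes, and 627 genes were chosen under both labels. Without EC KO 6 the first count was 221 and without EC KO 46 it was 212, both fits with a lone EC library under that label.

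The gene lists are groups of genes by known function, and their members were counted whether or not they met the 4-fold rule. Kupffer cell signature genes were the first. Of 18, all were higher than the mean of the other cell types and 15 were higher than each of them, and the same 15 met the rule. Vsig4, a complement receptor that captures bacteria, stood at 4112, 3776, 3654 and 3472 CPM, 33.6 times HSCs. Folr2, a folate receptor, had a ratio of 36.0, Fabp7, a fatty acid binding protein, of 40.3, and Cd207, the lectin langerin, of 28.3. The 4 libraries lay close together for Vsig4 (SD 269.7 around 3753 CPM), less so for Folr2 (SD 371 around 1447 CPM).

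The signature genes that were not specific were Slc16a9, Id3 and Cd38. Id3, a repressor of DNA-binding factors, stood at 3198, 2312, 1745 and 1397 CPM in Kupffer cells, while HSCs had a mean of 2405 and ECs of 1338 CPM. Cd38, an enzyme that consumes NAD, averaged 472 ± 117 CPM (SD, n = 4) in Kupffer cells and 503 CPM in ECs. Slc16a9, a transporter, averaged 40.0 CPM in Kupffer cells and 27.7 CPM in HSCs. These 3 genes were expressed in Kupffer cells and in at least 1 of the neighbouring cell types. C6, a part of the complement attack complex, met the rule by a narrow margin, with 1675 ± 364 CPM against 410.3 CPM in HSCs, a ratio of 4.08. It lost the rule without KC WT 31 or KC WT 39, with ratios of 3.78 and 3.93.

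Transcription factors known from macrophages were counted next. Of 25 macrophage factors 21 were higher than the mean of the others, and 9 were higher than each other type. These included Spi1, Nr1h3, Spic, Runx1, Irf5, Mitf, Batf3 and Ikzf1, and the list's median log2 difference was 2.28. Spi1 stood at 884, 643, 670.2 and 683 CPM against 25.8 CPM in HSCs, and Spic at 315, 310.3, 353 and 252 CPM against 10.6 CPM in HSCs. Nr1h3 averaged 834 CPM against 144 CPM in HEPs, its next highest type, without TMM scaling, which lowers this ratio. Irf5, an interferon regulatory factor, varied little, with 375 ± 18.9 CPM and a ratio of 12.2.

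Other factors tied to macrophages had similar or higher means in another liver cell. Irf8 averaged 548 CPM in Kupffer cells and 526 CPM in ECs. Maf averaged 50.5 CPM in Kupffer cells and 234 CPM in ECs. Zeb2 stood at 286, 314, 297 and 235 CPM in Kupffer cells, where its HSC mean was 444 and its EC mean 135 CPM. Klf4, Pparg and Fli1 also had means in ECs above those in Kupffer cells.

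The binding sequence of PU.1 was then searched in the promoters of the specific genes, because Spi1 was among the factors that set Kupffer cells apart. Promoters ran from 250 bases before to 50 bases after each start in RefSeq (GRCm38.p6), and 412 of the 552 genes matched by symbol, with 512 promoters. The motif GAGGAAGT, on either strand, was present in 46 of the 512 promoters, or 8.98%, against 1052 of all 32851 promoters, or 3.20%. Genes of at least 10 CPM in Kupffer cells that were not specific had 3.16%. Genes specific to ECs, HSCs and HEPs by the same rule had 1.88%, 1.55% and 2.12%. The 46 promoters include those of related genes, each counted separately. These were Pirb, Pira2, Gm14548, Gm15448 and Lilra6, which lie together, and Bcl2a1a, Bcl2a1b and Bcl2a1d. The following 5 show the motif in place. They belong to the specific genes of highest CPM whose match lies wholly before the start and whose last bases before the start lie in no GENCODE transcript of the gene, which left out C1qc, Cd300ld and Rab32. Each line gives the 250 bases before the start, 5′ to 3′ in the direction of the gene, with capitals for GAGGAAGT or for its reverse complement.
Ctsc: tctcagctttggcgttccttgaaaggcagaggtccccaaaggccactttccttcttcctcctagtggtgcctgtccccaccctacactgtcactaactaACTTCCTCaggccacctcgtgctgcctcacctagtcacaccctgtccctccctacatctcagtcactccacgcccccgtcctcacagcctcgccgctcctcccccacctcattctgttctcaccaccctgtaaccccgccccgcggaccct
Fcgr4: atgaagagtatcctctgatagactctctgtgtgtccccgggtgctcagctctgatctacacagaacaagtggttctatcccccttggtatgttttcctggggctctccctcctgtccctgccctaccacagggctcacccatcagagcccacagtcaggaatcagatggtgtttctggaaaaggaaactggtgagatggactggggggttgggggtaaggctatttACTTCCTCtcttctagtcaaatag
Vav1: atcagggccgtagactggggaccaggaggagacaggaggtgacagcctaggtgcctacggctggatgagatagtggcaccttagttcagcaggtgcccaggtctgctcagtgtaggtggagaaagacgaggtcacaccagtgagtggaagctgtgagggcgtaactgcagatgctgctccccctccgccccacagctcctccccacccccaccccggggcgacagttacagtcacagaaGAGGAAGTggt
Pirb: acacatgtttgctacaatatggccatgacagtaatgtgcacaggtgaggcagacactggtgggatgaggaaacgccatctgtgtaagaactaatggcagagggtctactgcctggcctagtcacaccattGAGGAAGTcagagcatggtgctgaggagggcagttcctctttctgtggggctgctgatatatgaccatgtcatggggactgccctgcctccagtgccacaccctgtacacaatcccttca
Cd72: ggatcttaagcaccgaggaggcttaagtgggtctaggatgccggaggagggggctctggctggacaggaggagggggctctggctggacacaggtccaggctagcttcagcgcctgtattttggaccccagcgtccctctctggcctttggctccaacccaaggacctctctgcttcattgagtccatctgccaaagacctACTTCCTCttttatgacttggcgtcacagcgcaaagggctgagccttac
The stretches lie at chr7:88277835-88278084 (plus strand) for Ctsc, a lysosomal peptidase, and at chr1:171018676-171018925 (plus strand) for Fcgr4, an activating Fc receptor. They lie at chr17:57278850-57279099 (plus strand) for Vav1, a signalling factor of blood cells, at chr7:3720383-3720632 (minus strand) for Pirb, an inhibitory receptor, and at chr4:43454627-43454876 (minus strand) for Cd72, a receptor with a C-type lectin domain. Counted from the start, the first base of the match lies at -151 in Ctsc, -24 in Fcgr4, -11 in Vav1, -120 in Pirb and -49 in Cd72. In Vav1 and Pirb the motif reads on the strand of the gene, and in the other 3 on the opposite strand.

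Other motifs were counted in the same promoters. TGACTCA, the AP-1 motif, was in 7.81% of them against 5.20% of all promoters, 3.78% for expressed genes that were not specific and 7.80% for genes specific to HEPs. TGCTGAC, part of the Maf motif, which can overlap the AP-1 motif by its last letters, was in 4.10% against 4.67% of all and 3.62% for expressed genes that were not specific. CACGTG, the E-box read by Mitf and its relatives, was in 7.23% against 7.15% and 10.7%, and TATAAA in 11.1% against 13.6% and 7.37%. For TATAAA the specific promoters thus lay below all promoters and above those of other expressed genes. A match describes the letters of the promoter and is not evidence that a factor binds there.

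**Figure D3:**
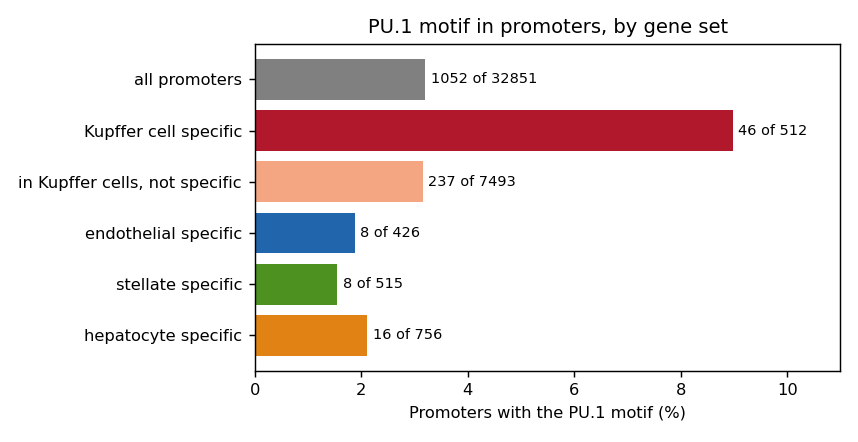
Percentage of promoters with GAGGAAGT on either strand, by gene set, with the number of promoters beside each bar. The bar for Kupffer cell specific genes is at 8.98%, and the bars for the other sets are between 1.55% and 3.20%.

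Genes common to macrophages of many tissues followed. Of 20 pan-macrophage genes all were higher than the mean of the others and 18 were higher than each other type. Cd68, a lysosomal membrane protein, averaged 1552 ± 101 CPM with a ratio of 23.8. Tyrobp, the adaptor that passes on signals of many myeloid receptors, averaged 1094 ± 191 CPM with a ratio of 25.8. Adgre1 averaged 1615 ± 464 CPM with a ratio of 30.4, but it encodes F4/80, by which the cells were sorted, and its level is no finding. Mertk and Cd84 were the 2 exceptions, with 293 and 164 CPM in Kupffer cells and 220.0 and 141 CPM in ECs.

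Scavenger receptors and lectins divided between Kupffer cells and ECs. Of 26 genes 15 were higher in Kupffer cells than in each other type, and the other 11, all at 10 CPM or more, had ECs next in 9 cases. On the Kupffer cell side stood Clec4f, Timd4, Siglece with a ratio of 44.3, Siglec1 with 22.8, Cd163, the receptor for haemoglobin bound to haptoglobin, with 34.0, and Marco with 25.0. The ratio of Marco was 4.92 without KC WT 31. On the endothelial side stood receptors that sinusoidal ECs use to clear blood. Stab2, a hyaluronan receptor, averaged 334 CPM in Kupffer cells and 4003 CPM in ECs, and Stab1 averaged 213 and 1686 CPM. Mrc1, the mannose receptor often used as a macrophage gene, averaged 785 ± 161 CPM in Kupffer cells and 1938 CPM in ECs. Msr1, a class A scavenger receptor, was closer, with 747 ± 39.4 CPM in Kupffer cells and 409 CPM in ECs.

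The mRNA of complement genes differed in level between the cell types. C1qa, C1qb and C1qc encode the chains of C1q, which binds antibody on targets, and averaged 4622, 7378 and 5003 CPM in Kupffer cells with ratios of 34.4, 31.8 and 34.9. Cfp, properdin, which stabilises the alternative pathway, stood at 4770.1, 3285, 3318 and 3168 CPM with a ratio of 28.7. The receptors C3ar1 and C5ar1 had ratios of 33.9 and 22.7. Of other plasma components, C6 met the rule by the narrow margin given above, and C3 and Cfi did not meet it. C3 averaged 442 CPM in Kupffer cells and 2201 CPM in HEPs, and Cfi averaged 95.1 and 1209.6 CPM. In all, 10 of 19 tested genes of this list were higher in Kupffer cells than in each other type.

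Fc receptors and their signalling partners were higher in Kupffer cells than in each other type for 17 of 20 genes. Fcgr1 and Fcgr4, activating receptors for antibody, averaged 224 and 397 CPM with ratios of 42.3 and 28.3. Fcer1g, the shared signalling chain, averaged 1143 CPM with 262 CPM in ECs, a ratio of 4.36. The inhibitory receptor Fcgr2b was the reverse, with 152 CPM in Kupffer cells and 4093 CPM in ECs. Fcgrt, which recycles antibody, averaged 853 CPM in Kupffer cells and 2089 CPM in ECs.

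Of 24 pattern recognition genes 16 were higher in Kupffer cells than in each other type. The endosomal receptors Tlr7 and Tlr8, which sense RNA, stood at 69.5 and 46.8 CPM with ratios of 26.4 and 41.6. Tlr9, a sensor of DNA, had the same direction at a low level, 3.50 CPM with a ratio of 33.5. Nlrp3, the sensor of an inflammasome, stood at 443, 609.8, 969 and 737 CPM with a ratio of 36.2, and Nlrc4 averaged 39.9 CPM with a ratio of 29.8. Tlr4, the receptor for endotoxin, varied among the libraries with 17.4, 85.4, 38.2 and 21.8 CPM and had a ratio of 3.12 to ECs. Its partner Ly96 averaged 25.2 CPM in Kupffer cells and 34.2 CPM in ECs, and the adaptor Myd88 averaged 159 CPM with a higher mean in HSCs.

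Genes of haem breakdown and iron export were specific, and the ferritin genes were not. Hmox1, which opens the haem ring, stood at 2488, 2180.2, 3141 and 2034 CPM with a ratio of 17.4. Slc11a1, an iron and manganese exporter of the phagosome, averaged 1462 ± 92.5 CPM with a ratio of 33.5, and Slc40a1, ferroportin, averaged 4302 ± 2067 CPM with a ratio of 9.82. The ferritin genes Fth1 and Ftl1 were high in every cell type, with 4118 and 4907 CPM in Kupffer cells and ratios of 2.39 and 2.63. Of 18 genes 10 were higher than each other type, 7 of them by the 4-fold rule.

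Genes of MHC class II, which presents antigen to T cells, were specific to Kupffer cells. Cd74 stood at 17238, 15666, 11310.3 and 17354 CPM, H2-Ab1 at 4958, 3033, 2509 and 4290.4 CPM, and Ctss, the peptidase that trims the invariant chain, at 5638, 4172, 3912 and 4327 CPM. Their ratios were 27.5, 28.9 and 25.9. The costimulatory genes Cd80 and Cd86 had ratios of 43.0 and 38.3. Class I genes were not part of this pattern, with B2m at 3183 CPM in Kupffer cells and 5440.4 CPM in HSCs. Of 16 genes 12 were higher than each other type.

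The receptors of the Csf1 and Csf2 axis were in Kupffer cells and the ligands of Csf1r in other cells. Csf1 stood at 8.52, 17.6, 24.7 and 15.0 CPM in Kupffer cells, against means of 356 CPM in HSCs and 157 CPM in ECs, a log2 difference from the other types of -2.08 ± 0.36 (SE, edgeR adjusted p = 0.000325). Il34 stood at 0.939, 2.81, 2.70 and 1.76 CPM against 337 CPM in HSCs, with 1.32 CPM in ECs and 0.483 CPM in HEPs. Csf2ra had a ratio of 16.4 and Csf2rb of 20.9, while Il10ra, a receptor for Il10 outside this axis, had 11.5. The Il34 call (log2 difference -1.78 ± 0.58, edgeR adjusted p = 0.0235) was lost without KC WT 31, KC WT 39, KC KO 43 or HEP WT 33, where the log2 difference lay between -1.86 and -1.38 and the adjusted p between 0.0505 and 0.0938.

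Cytokine genes were abundant in these cells from livers without a toxin. Of 24 cytokines and chemokines 23 were higher than the mean of the other types and 15 were higher than each. Il1b stood at 6419, 2815, 3574 and 2015 CPM with a ratio of 29.5, Tnf at 864, 617, 632 and 917 CPM with 17.5, and Il10 at 375, 117, 262 and 409.9 CPM with 39.6. Ccl24, which attracts eosinophils, averaged 546 ± 83.0 CPM with a ratio of 38.8. Il1a was shared with ECs, at 2197 and 1114 CPM, and Ccl2, which attracts monocytes, with HSCs, at 436 and 530.1 CPM. Cxcl10 averaged 175 CPM in Kupffer cells and 677 CPM in ECs. Genes known to respond to cell dissociation were counted beside these. Of 10, 3 were higher and 1 was lower than the mean of the other types, and none was higher than each of them. Hspa1a, a heat shock gene that was higher, averaged 207 CPM in Kupffer cells and 193 CPM in HSCs. Jun, the lower gene, averaged 2091 CPM in Kupffer cells and 7962 CPM in HSCs.

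Migration receptors were higher than in each other type for 13 of 17 genes. P2ry13 and P2ry12, receptors for nucleotides, had ratios of 41.9 and 30.2, and Fpr1, a receptor for bacterial peptides, of 32.8. Ccr3 stood at 102, 110.1, 317 and 117 CPM, with its highest value in KC KO 27. Ccr2, the receptor that brings monocytes from blood, stood at 5.97, 6.07, 30.8 and 6.84 CPM, and was 2.07 times the EC mean.

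Lipid and lysosomal genes were shared more widely. Of 24 lipid genes 10 were higher than each other type and 7 met the rule. Among the 7 were Pltp, a lipid transfer protein, Soat1, which esterifies cholesterol, and Hpgds and Alox5ap, which make prostaglandins and leukotrienes. Pltp had a ratio of 4.06 and lost the rule without KC WT 31, with 3.47. Apoe, an apolipoprotein, averaged 32677 ± 2697 CPM in Kupffer cells and 32947 CPM in HEPs, without TMM scaling, which raises HEPs against Kupffer cells. Lpl, lipoprotein lipase, averaged 1016 ± 36.7 CPM and fell short of the rule with a ratio of 3.83 to HSCs. Of 23 lysosomal genes 11 were higher than each other type, and of these Ctsa, Ctsb, Ctsc and Ctss met the rule. Acp5 met the rule without being called higher than each, and its ratio of 4.46 was 3.99 without KC KO 27. Lgmn, Psap and Ctsd averaged 4174, 5969 and 3842 CPM with ratios between 2.30 and 2.78, while Ctsl averaged 765 CPM against 2821 CPM in ECs.

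The oxidase of phagocytes was specific except for its shared part. Cybb, the catalytic subunit, averaged 1520.2 ± 329 CPM with a ratio of 28.1, and Ncf1 and Ncf4, cytosolic subunits, had ratios of 21.5 and 25.1. Rac1, which every cell uses, averaged 363 CPM in Kupffer cells and 498 CPM in ECs, and was the exception among 7. Of 29 leukocyte cytoskeleton and adhesion genes 25 were higher than each other type, Ptprc (CD45) with a ratio of 12.8 and Itgal with 28.0. In the Ms4a family of membrane proteins 5 of 10 tested genes were, such as Ms4a8a at 172 ± 23.0 CPM and a ratio of 26.1, whereas Ms4a4d averaged 2.104 CPM in Kupffer cells and 361 CPM in HSCs. The list medians ran from 4.50 for the Ms4a family to 5.28 for the oxidase on the log2 scale, and from 1.73 for lysosomal enzymes to 1.95 for lipid genes.

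**Figure D4:**
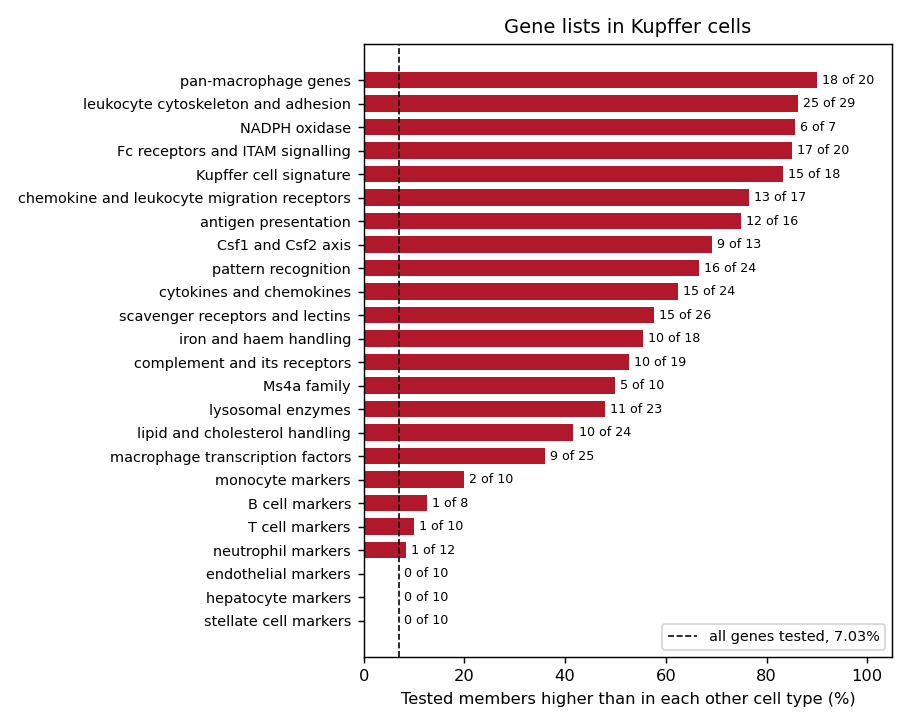
Percentage of the tested members of 24 gene lists, without that of the 4 markers, that were higher in Kupffer cells than in each other cell type, with the counts beside the bars. Also not drawn are the lists of dissociation response genes and of genes of the S and G2M phases. The same holds for markers of macrophages in other tissues, dendritic cells, NK cells, platelets, erythroid cells and cholangiocytes. The dashed line is the 7.03% of all genes tested, and the bars run from 18 of 20 pan-macrophage genes to 0 of 10 endothelial, hepatocyte and stellate cell markers.

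Markers of other cells were counted in the same way. Of all genes tested, 20.5% were higher than the mean of the other types. So were 7 of 10 monocyte, 6 of 8 B cell, 5 of 10 T cell, 4 of 6 erythroid and 3 of 8 NK markers. Nearer to that share, 2 of 12 neutrophil, 2 of 8 dendritic, 1 of 5 platelet and 1 of 5 cholangiocyte markers were higher. Summed B cell markers stood at 72.2 to 141 CPM in Kupffer cells and 66.1 to 252 CPM in ECs. Summed T cell markers stood at 50.4 to 116 and 53.3 to 186 CPM, so that both overlapped ECs. In HSCs and HEPs these sums were at most 31.1 CPM. Dendritic cell markers, at 56.1 to 74.3 CPM, were lower than in ECs with 201 to 299 CPM. Monocyte markers, at 1690 to 5294 CPM, were higher than in ECs with 640 to 1405 CPM. Of the monocyte markers 2 were higher than in each other type, of 12 neutrophil, 10 T cell, 8 B cell and 5 platelet markers 1 each, and of 8 dendritic, 8 NK, 6 erythroid and 5 cholangiocyte markers none. The T and B cell genes concerned were Cd4 (42.2 ± 19.9 CPM, ratio 7.58) and Cd22 (50.3 ± 19.5 CPM, ratio 4.72), while Cd3e, of T cells, had a mean of 0.395 times that of the next cell type. Of 8 markers of macrophages in other tissues 4 were higher than in each other liver cell. These were P2ry12 and Cx3cr1, known from microglia, Treml4, and Siglecf at 3.56 CPM. Sall1, Gata6 and Tmem119 averaged 0.0416, 0.0369 and 0.129 times the next cell type. In KC KO 27 the 12 neutrophil markers summed to 398 CPM, against 96.1 to 101 CPM in the other 3 Kupffer cell libraries. Among 12 genes of the S and G2M phases Mki67 alone was higher than in each other type, with 55.3 ± 10.8 CPM and a ratio of 7.11, while Top2a averaged 11.5 CPM with 10.3 CPM in ECs.

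Endothelial markers in Kupffer cells had 1 exception, which was chosen after its values were seen. Cdh5, the gene whose promoter drives the Cre here, stood at 147, 172, 149 and 159.9 CPM in Kupffer cells and at 234, 171, 177 and 165 CPM in ECs. The Kupffer cell mean was 84.2% of the EC mean, and the TMM-scaled log2 difference, of the other sign, was 0.08 ± 0.46 (SE, edgeR adjusted p = 0.93). The other 9 endothelial markers stood at 2.53% to 14.5% of their EC level, with a median of 3.37%. HSCs had at most 12.4 CPM of Cdh5 and HEPs at most 2.103 CPM. The gene Gm29682 overlaps Cdh5 on the opposite strand, and because the strand setting of the counting is not given in the sources used here, their reads cannot be told apart.

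The highest ratios are given for genes of at least 10 CPM whose next cell type averaged at least 3 reads per library. This left out Kcnj9 with a ratio of 86.8 and Prg2 with 74.0, which had fewer. Mefv, the gene of pyrin, an inflammasome sensor, stood at 89.8, 30.1, 97.4 and 206 CPM with a ratio of 91.9. Ksr2, a kinase scaffold, followed with 80.0, Naip1, a sensor of bacterial proteins, with 70.1, Mmp27, a matrix peptidase, with 69.8, and Smc1b, a cohesin subunit known from meiosis, with 67.2. Their next cell types rested on 64, 14, 13, 66 and 78 reads over 4 libraries, so that these ratios are less precise than those of the markers. Cd209f, a lectin, reached 60.7 through a single library, with 3.49, 13.6, 120.4 and 4.94 CPM, and had 12.5 without it. At the edge of the rule, Sdc3, Atp6v1b2 and Tfrc lay just inside with ratios of 4.002, 4.01 and 4.04, and Blnk, Dock5 and Nfkbib just outside with 3.999, 3.995 and 3.988.

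The positions of the specific genes were compared with each other. Within 50 kilobases, 132 of the 551 with a position (24.0%) had such a neighbour, against 17.2% for genes specific to ECs, 18.4% for HSCs and 32.7% for HEPs. The largest group held 8 genes of the Pir and Lilr family of immunoglobulin-like receptors at chr7:3711409-3915503, and the next held 6 Cd300 family genes at chr11:114890041-115062177. The C1q chain genes C1qb, C1qc and C1qa lie together at chr4:136880129-136898803, and Spi1, Mybpc3, Nr1h3 and Acp2 at chr2:91082390-91214098. Reads were counted only where they aligned to 1 place, and levels of near-identical relatives such as the Pir, Cd300 and class II genes are therefore uncertain.

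The 4 Kupffer cell libraries were not equal. The coefficient of variation among them had a median of 29.4% over the 552 specific genes and of 24.9% over the other genes of at least 10 CPM. KC WT 31 had 8 specific genes over 2-fold above and 30 over 2-fold below all of the other 3, and KC WT 39 had 10 and 29, whereas KC KO 27 had 7 and 9 and KC KO 43 had 13 and 12. The genes named in the next sentences were chosen after their values were seen.

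In KC WT 31 Marco, a scavenger receptor for bacteria, stood at 9163 CPM, against 551, 670.0 and 368 CPM in the others. Cxcl13, which attracts B cells, stood at 1188, 154, 193 and 149.8 CPM, and Lyz2 at 17504, 7889.9, 8141 and 7038 CPM. Lower in the same library were Slc40a1 at 1562, 6455, 5093 and 4096 CPM, Axl at 458, 1976, 1649 and 1574 CPM, and Cd163 at 264, 965, 679 and 783 CPM. KC WT 39 had the lowest value of the 4 for the chemokine gene Ccl7, with the libraries at 241, 54.3, 303 and 385 CPM, and for Il1rn, which blocks interleukin 1, at 407, 167, 786 and 894 CPM. All of these genes remained higher in the lowest Kupffer cell library than in the mean of any other cell type.

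MHC class II genes varied in another order. H2-Eb1 stood at 1539.6, 59.8, 45.04 and 1378 CPM, so that KC WT 31 and KC KO 43 were high and the other 2 low. H2-Ea-ps, a class II pseudogene beside it, stood at 1209, 228, 67.3 and 1255 CPM. The neighbouring H2-Aa stood at 3639.6, 2316, 1979.9 and 2958 CPM, with a range of less than 2-fold. The libraries of other cell types were unequal for H2-Eb1 too, with 54.1 CPM in EC WT 34 against 2.57 to 5.75 CPM in the other EC libraries, and 43.1 CPM in HSC WT 32 against 0.576 to 3.94 CPM in the other HSC libraries. In HEPs the values were 13.8, 10.4, 0.193 and 7.55 CPM in HEP WT 29, HEP WT 33, HEP KO 25 and HEP KO 41. Outside Kupffer cells H2-Ea-ps was highest in HSC WT 32 with 45.1 CPM and EC WT 34 with 40.2 CPM. In Kupffer cells this split ran across the labels, with 1 library of each label on either side.

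**Figure D5:**
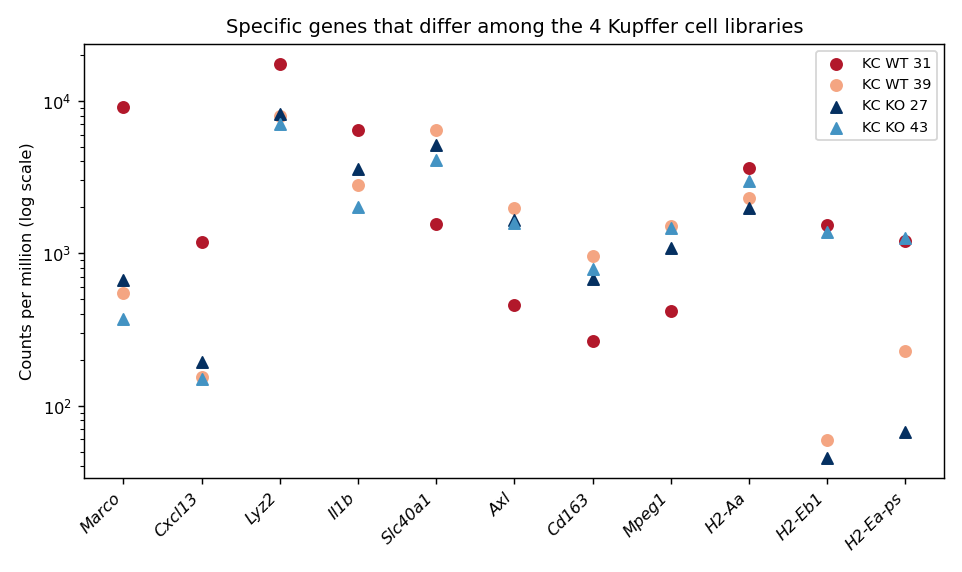
Level in each of the 4 Kupffer cell libraries, in CPM on a log scale, of 11 specific genes chosen for their spread, with circles for the WT label and triangles for the KO label. KC WT 31 stands above the others for Marco at 9163 CPM and below them for Slc40a1 at 1562 CPM, and KC WT 31 and KC KO 43 stand together for H2-Eb1.

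The label was compared within the 4 Kupffer cell libraries, to ask whether Kupffer cell identity differed between mice labelled KO and WT. Of 13867 genes tested, 0 passed at an adjusted p under 0.05 with edgeR (0%), with a smallest adjusted p of 0.933. At an unadjusted p under 0.05 there were 706, and DESeq2 called 72. Of 904 specific genes tested 0 passed with edgeR, 89 had an unadjusted p under 0.05, of which 53 were higher and 36 lower under the KO label, and DESeq2 called 13. The groups did not overlap for 226 of the 552 specific genes, or 40.9%, and for 36.5% of all tested genes. The 4 markers had log2 differences between -0.45 and 0.22.

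Among specific genes of at least 10 CPM whose labels did not overlap, none of them past the threshold, the largest differences were those of Prg2 (0, 0, 50.5 and 1.96 CPM), Mybpc3 (3.62, 2.74, 9.36 and 34.8 CPM) and Gm43323 (5.10, 5.15, 13.3 and 40.3 CPM) on the side of the KO label. On the side of the WT label they included Gm26522 (21.9, 57.8, 5.61 and 2.84 CPM) and Rhoh (93.0, 97.9, 43.4 and 16.5 CPM). In each of these the spread within a label was large, and the edgeR adjusted p was 0.933 for all 5. Gm26522 lies within Ctsc on the opposite strand.

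Genes of other kinds were compared between the labels in the same libraries. Over all tested genes, 20.5% were higher and 16.1% lower under the KO label without overlap, and 0 were called. Of 10 dissociation response genes 7 were lower in both KO libraries than in both WT libraries, with a median log2 difference of -1.52. Fos stood at 3896, 7899, 1119 and 355 CPM and Jun at 2455, 4296, 1205 and 409 CPM. Hepatocyte and endothelial markers were higher under the KO label without overlap for 6 of 10 each, with medians of 0.55 and 0.66. Neutrophil markers did so for 4 of 10, with a median of 2.07, but their summed level was high in KC KO 27 alone, and KC KO 43 with 101 CPM was level with the WT libraries. The part of these genes in the differences between labels was not tested.

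Whether the contrast of Kupffer cells with the other cell types depended on the label was tested as an interaction over the 16 libraries. Of 17214 genes 59 passed, or 0.343%, and of the 902 specific genes tested 1 did. This was Hacd4, an enzyme of fatty acid elongation, which stood at 121, 131, 92.5 and 83.5 CPM in Kupffer cells. In ECs it stood at 8.86 and 6.53 CPM under the WT label and at 20.3 and 18.4 CPM under the KO label, and in HSCs at 4.42 and 3.39 CPM and at 11.9 and 9.06 CPM. In HEPs it was near the floor, with 0.319 and 0.477 CPM under the WT label and 1.42 and 1.01 CPM under the KO label. The Kupffer cell contrast was thus smaller under the KO label, by a log2 difference of -2.02 ± 0.33 (SE, edgeR adjusted p = 0.0341), with the labels apart in all 4 cell types. The count of 59 rested on single libraries. It was 0 without HSC WT 40 or HEP KO 25, 1 to 9 without EC WT 38, EC KO 46, KC WT 31, KC KO 43, HEP WT 29, HEP WT 33 or HEP KO 41, 239 without HSC KO 20 and 382 without KC KO 27.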

How the data were processed

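mRNA of 16 libraries, 2 per cell type and label, was sequenced. The deposited files hold raw read counts per gene, which the authors made, per the labels' processing notes, with Trimmomatic 0.32, HISAT2 2.1.0 and HTSeq 0.9.1 on GRCm38. The annotation release and strand setting are not given in the sources used here, and the library kit is named differently in different labels. HTSeq's 5 summary lines per file stayed out of library sizes: per library, 24.8% to 47.9% of reads were not unique, 1.31% to 14.0% lay on no feature and 2.88% to 4.91% were ambiguous. Groups were taken from the sample labels.

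CPM used the gene totals (12872706 to 15690506), which limit precision for low genes. Genes were filtered with filterByExpr, scaled by TMM and tested with edgeR 4.0.16 (quasi-likelihood, R 4.3.3) at a Benjamini-Hochberg adjusted p under 0.05. DESeq2 1.42.0 was an alternative. Scripts were tested on simulated data. Positions came from GENCODE M21 (98.9% of identifiers), promoters from RefSeq. In the files 126 symbols stand for more than 1 identifier.

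The members and lists were chosen with earlier results of these data known. Genes are named by this rule: the 4 markers, members of the lists, the 10 specific genes of highest CPM, the 10 of highest ratio among those of at least 10 CPM with an average of at least 3 counts per library in the next type, the 3 genes just inside and outside the 4-fold threshold, and, for the label, the 3 with the highest and lowest differences among specific genes of at least 10 CPM without overlap. Other named genes were chosen after their values were seen. Alternatives were other filters, scalings, thresholds and folds, and each library left out. The settings that leave out 2 libraries together were added after seeing the data. Some genes that this rule names are not reported here.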

Additional observations from a re-analysis of the deposited data

Results flagged for a closer look

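Groups of 4 libraries were checked for 1 library far from the other 3. The 43 groups held named genes in Kupffer cells and library-wide measures in each of the 4 cell types. Some of the genes were chosen after their values were seen, and all share the same libraries, so no chance rate is given. A library lay far from the other 3 in 5 of the 43 groups. In each case the library was KC WT 31 and its value was the highest. It stood at 9163 CPM for Marco, 17504 CPM for Lyz2, 4770.1 CPM for Cfp, 6049 CPM for C1qc and 884 CPM for Spi1. Spi1 lay between 643 and 683 CPM in the other 3 libraries, and Marco between 368 and 670.0 CPM. In all 5 genes the lowest Kupffer cell library was still above every EC, HSC and HEP library.

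Hacd4 was the 1 specific gene whose contrast with the other cell types differed between the labels, by a log2 difference of -2.02 (edgeR adjusted p = 0.0341). No smaller adjusted p was found among the 59 genes that passed, and no gene passed at an adjusted p under 0.01.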

How the results depend on the processing

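No paired analysis was possible because the groups share no replicate numbers and the labels tie no libraries to an animal. Of 770 values of 35 named genes under the alternatives, 766 kept their direction and side of the threshold, and 4 of Il34 lost the call. The 2095 specific genes became 3215 at 2-fold, 825 at 1 CPM or more, 902 after filterByExpr and 369 where the lowest Kupffer cell library had to exceed the highest other library 4-fold. The 552 at 10 CPM became 932 at 2-fold and 306 under that stricter rule. With 1 library left out they ranged from 1854 to 2250 and from 545 to 567. With CPM from TMM sizes 513 of the 552 were shared.

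The 6657 genes that differed from the other types became 2876 at a log2 fold change of at least 2. The 1210 higher than each became 796 at an adjusted p under 0.01, 718 at a log2 fold change of at least 2, 1140 without HSC KO 20 and HSC WT 32 and 964 without KC WT 31 and KC KO 27, the last 2 chosen after seeing the data. Of called genes 53.1% were higher, with a range of 49.3% to 60.3%. At an adjusted p under 0.01 the cross-label counts of 423 and 431 became 231 and 260, and with 1 library left out they ranged from 212 to 431 and from 313 to 418.

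Between labels within Kupffer cells, the count of 0 genes became 72 with DESeq2, 159 with no filter and 706 unadjusted, and 0 to 12 with 1 library left out, the 12 without KC KO 43. For specific genes these were 13, 39, 89, and 0 to 4. The interaction count of 59 became 1089 with DESeq2, 1234 with no filter, 137 at 10 counts or more in every Kupffer cell library and 0 at an adjusted p under 0.01. With 1 library left out it ranged from 0 to 382, with 239 without HSC KO 20. The cause of these shifts was not tested.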
